A study of Arabidopsis thaliana with 9 samples.

Results

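Transcripts in siliques of Arabidopsis thaliana were compared, gene by gene, between wild-type plants and plants with both copies of ARGONAUTE 3 (AGO3) carrying the ago3-3 allele. The silique is the fruit that holds the developing seeds. The members of the comparison were all rows of the gene count table that passed an expression filter, 22702 of 34262 rows, in 4 of the 9 samples of the series. Each genotype had 2 biological samples. The 2 libraries of heterozygous ago3-3 siliques entered the filter, the scaling and the measure of spread, and are printed beside the others. With the 4 libraries of the comparison alone, 22239 rows passed the filter. All 6 mRNA libraries were labelled as ecotype Columbia-0 and as silique tissue taken 1 to 5 days after pollination. The homozygous and heterozygous libraries carried the same ago3-3 genotype label, so zygosity was read from the sample titles and the series design text. A single allele was used, the number of plants in a sample is not given, and whole fruits mix fruit wall, seed coat, endosperm and embryo. In such a bulk sample, fewer cells of a type and less RNA per cell cannot be told apart.

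ARGONAUTE proteins bind small RNAs, and the bound small RNA guides them to complementary transcripts or to transcripts still being made at a locus. AGO1, the best known member, acts with microRNAs in cutting target transcripts. AGO4 acts in RNA-directed DNA methylation, and AGO2 and AGO3 are neighbouring genes of close sequence, of which AGO2 is known in antiviral defence. The comparison addresses which transcripts differ in siliques when AGO3 is mutated.

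The 6 libraries held 30338416 to 36258980 counts, at which 3 counts stand for 0.0811 to 0.107 counts-per-million (CPM, scaled by the TMM method). Structural RNA rows took 3.04% of the counts in wild type replicate 1 and 8.13% in wild type replicate 2. On the first principal component, with 37.3% of the variance, wild type replicate 1 lay at 49.9 and homozygous replicate 2 at 44.2, while the other 4 libraries lay between -27.1 and -20.0. The second component, with 19.5% of the variance, placed the homozygous libraries at -17.3 and -30.1, the heterozygous ones at -8.52 and -8.45 and the wild-type ones at 26.5 and 38.0. Genotype thus ran along the smaller axis, and each genotype of the comparison had 1 of its 2 libraries apart on the larger one. Fruit wall and ovule identity genes were present in all libraries, as for SHP2, a MADS-box gene of valve margins and ovules, at 179 and 156 CPM in the homozygous libraries, 181 and 175 in the heterozygous and 153 and 182 in the wild-type ones. Transcripts of seed maturation varied between libraries of the same genotype. OLEO1, an oil body protein gene of the embryo, stood at 49.2 and 2.03 CPM in the homozygous libraries, 23.7 and 94.4 in the heterozygous and 3.87 and 16.6 in the wild-type ones.

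**Figure D1:**
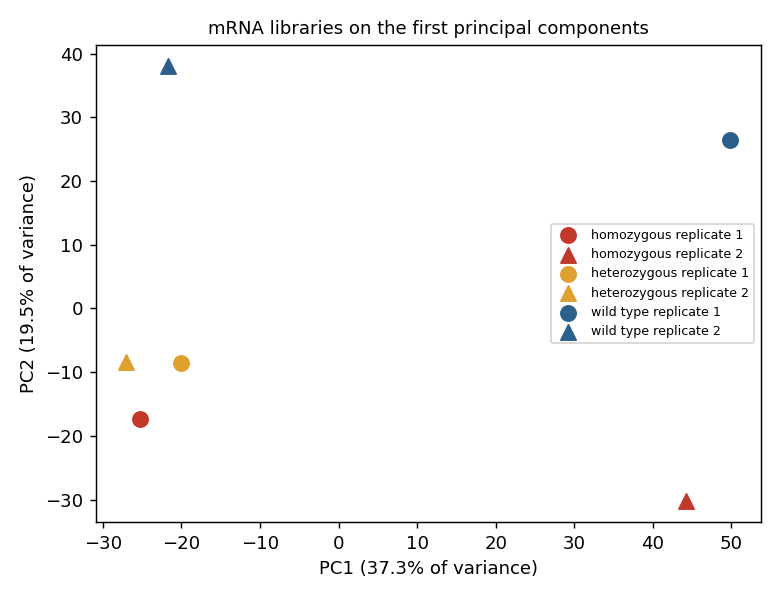
Position of the 6 mRNA libraries on the first principal component (PC1, x axis) and the second (PC2, y axis) of log2 CPM over all tested genes, with colours for genotype and shapes for replicate. Homozygous replicate 2 and wild type replicate 1 lie at 44.2 and 49.9 on PC1, and the genotypes are ordered along PC2 from -30.1 to 38.0.

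In homozygous siliques, transcripts of AGO3, of the superoxide dismutase CSD2, of the ferritin FER1 and of the pollen genes AGP11 and BCP1 were lower. Also lower were those of the wax gene CER1, the wall protein gene PRP4 and the cold-induced gene KIN2. Those of the histone H4 gene HIS4, the expansin EXPA1, the phosphate sensor SPX1, the defence gene ESP and the jasmonate repressor TIFY7 were higher. All of these are calls of DESeq2, and edgeR did not make them. The quasi-likelihood test of edgeR, the main test, called 0 of the 22702 genes (0.0%) at an adjusted p of 0.05. The smallest adjusted p was 0.142, and 1293 genes had an unadjusted p under 0.05, 483 of them higher in homozygous siliques (2.13% of all tested) and 810 lower (3.57%). DESeq2 called 76 of the 16195 genes to which it gave an adjusted p (0.469%), 10 higher (0.0617%) and 66 lower (0.408%). In edgeR the adjusted p of these 76 genes ran from 0.142 to 0.862, and over 11 alternative edgeR fits it ran from 0.00127 to 0.999. Where a gene is described as called below, the call is that of DESeq2 alone. Log2 differences and their SE are those of edgeR, also where the adjusted p beside them is that of DESeq2. For each of the 76 the homozygous and wild-type libraries did not overlap, a state in which 16.8% of all tested genes lay above and 17.3% below wild type. With CPM scaled by the total count, without TMM, 5923 genes lay above and 2046 below. Log2 differences then move up by about 0.0863, a shift that varies for genes whose libraries of 1 genotype differ. Both heterozygous libraries lay between the other genotypes for 29 of the 76 calls. The same count was not made over all tested genes, so it gives no measure of a dose order particular to the calls. The log2 differences of the lower genes ran from 0.43 to 3.15 in size with a median of -0.93, and those of the higher genes from 0.49 to 1.15 with a median of 0.96.

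The calls rested on few libraries. Without homozygous replicate 1 DESeq2 called 44 genes higher and 98 lower, which included 6 of the 10 and 36 of the 66. Without homozygous replicate 2 it called 4 and 30, with none of the 10 and 12 of the 66. Without wild type replicate 1 it called 8 and 88, with 2 of the 10 and 18 of the 66, and without wild type replicate 2 it called 101 and 88, with 4 and 33. The genes called whichever of the 4 libraries was left out numbered 7. They were AGO3, the superoxide dismutase gene CSD2, the ferritin gene FER1, the pollen genes AGP11 and BCP1 and the unnamed loci AT4G06945 and AT4G34290, and 5 of them, all but AGP11 and BCP1, were also called without both wild type replicate 1 and homozygous replicate 2. All 76 kept the sign of their difference in each edgeR fit that left out 1 library. As none of them had overlapping homozygous and wild-type libraries, leaving out 1 library could hardly change the sign. The kept signs are thus no sign of stability.

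**Figure D2:**
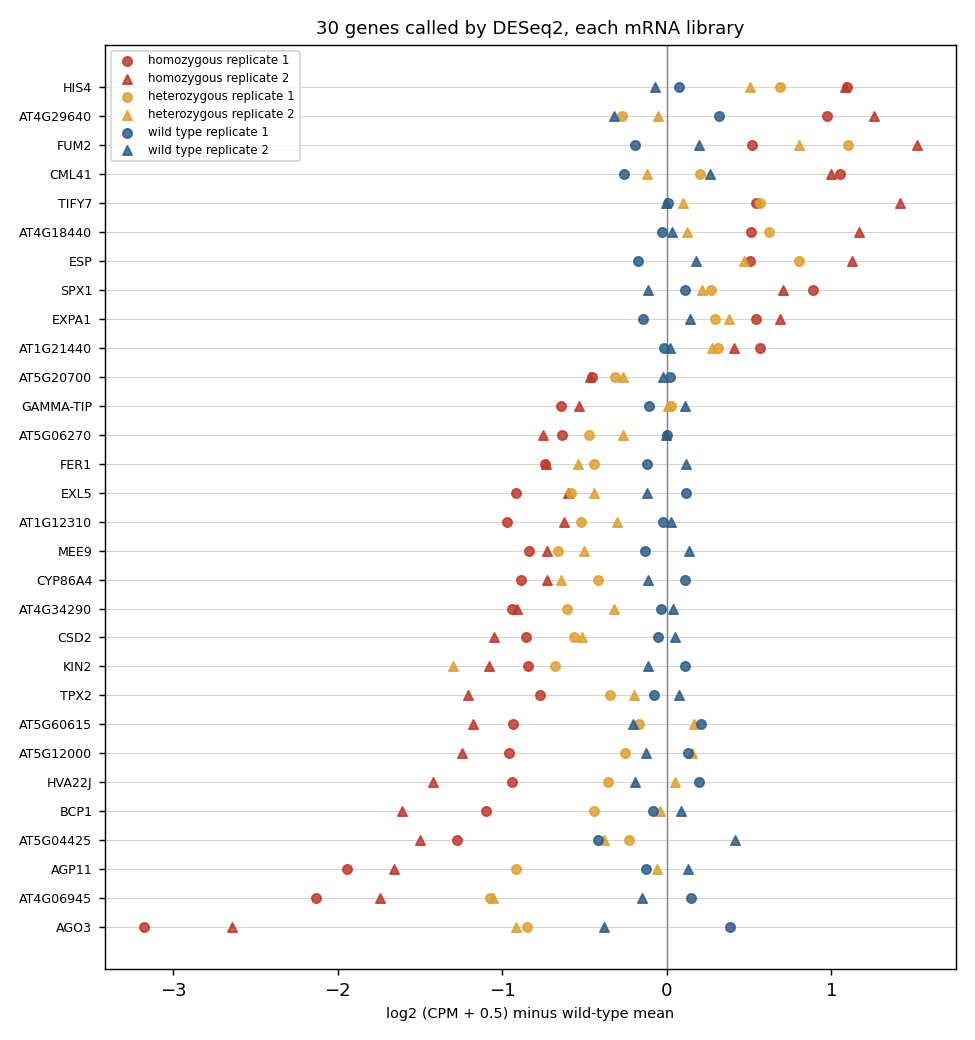
The 30 genes called by DESeq2 that are first by adjusted p, 10 higher and 20 lower in homozygous siliques, in each of the 6 mRNA libraries. The x axis is log2 of CPM plus 0.5 minus the mean of the wild-type libraries for that gene, colours give the genotype and shapes the replicate. The homozygous libraries of AGO3 lie farthest to the left, and those of HIS4 and FUM2 are among those to the right.

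AGO3 itself stood at 2.11 and 3.29 CPM in the homozygous libraries, 12.6 and 12.1 in the heterozygous and 30.4 and 17.6 in the wild-type ones. Both homozygous libraries lay below both heterozygous ones, and these below both wild-type ones. The log2 difference was -3.15 ± 0.31 SE, 8.90-fold lower (adjusted p = 1.66e-19, DESeq2). AGO2 stood at 45.6 and 56.7 CPM in the homozygous libraries, 52.3 and 47.5 in the heterozygous and 44.1 and 45.1 in the wild-type ones, with a log2 difference of 0.20 ± 0.13 SE, and was not called. AGO1 was at 177 and 195 CPM in homozygous against 157 and 165 in wild-type siliques, likewise without overlap and without a call (log2 difference 0.21). Of the other 12 tested genes among the 10 annotated loci on each side of AGO3, 0 were called by DESeq2 and 0 by edgeR. The shares over all genes were 0.469% and 0.0%, so 0 calls among so few genes say little about these loci.

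Among genes of copper proteins and of superoxide removal, CSD2 was lower in homozygous siliques. CSD2 encodes the chloroplast copper/zinc superoxide dismutase and is known as a target of miR398, the microRNA that is made when copper is scarce. It stood at 98.3 and 85.9 CPM in the homozygous libraries, 120.4 and 125 in the heterozygous and 172 and 185 in the wild-type ones. The homozygous libraries lay lowest, the heterozygous ones between, and no genotype overlapped another. The log2 difference was -0.96 ± 0.11 SE (adjusted p = 2.41e-10, DESeq2), and edgeR gave an adjusted p of 0.327. CCS, the chaperone that loads copper into these enzymes and likewise a known miR398 target, stood at 23.8 and 24.6 CPM in the homozygous libraries, 27.3 and 28.5 in the heterozygous and 30.9 and 31.4 in the wild-type ones (log2 difference -0.36 ± 0.11 SE, adjusted p = 0.466, DESeq2). It showed the same order of genotypes with a smaller difference and no call. FSD1, the iron superoxide dismutase that plants use when copper is short, stood at 289 and 212 CPM in the homozygous libraries, 247 and 199.6 in the heterozygous and 185 and 165 in the wild-type ones. Its homozygous libraries were above both wild-type ones (log2 difference 0.52 ± 0.18 SE, adjusted p = 0.264, DESeq2). CSD1, the cytosolic copper/zinc enzyme and the third known miR398 target of this group, was at 92.5 and 103 CPM in homozygous against 98.5 and 111 in wild-type siliques, where the genotypes overlapped.

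No other gene of the copper list was called. The laccase genes LAC2 and LAC4, of the enzymes that oxidise phenols in the cell wall, were at 105 and 66.8 CPM in homozygous against 156 and 119.7 in wild-type siliques and at 456 and 419 CPM in homozygous against 607 and 547 in wild-type siliques. PETE2, a plastocyanin that carries electrons in photosynthesis, was at 1493 and 1467 CPM in homozygous against 1728 and 1807 in wild-type siliques. SPL7, the transcription factor of the copper response, was above wild type at 42.7 and 44.2 CPM in homozygous against 38.8 and 39.2 in wild-type siliques. In the copper list as a whole, 7 of 16 tested genes were above and 9 below wild type. Without overlap were 2 and 5, beside 16.8% and 17.3% of all tested genes. The median log2 difference of the list was -0.0551 beside 0.00814 for all genes. It ran from -0.13 to -0.0123 when 1 library was left out, the first without homozygous replicate 2 and the last without homozygous replicate 1. Its members thus lay on both sides, and 1 of them, CSD2, was called.

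TPX2, which encodes a thioredoxin-dependent peroxidase, a peroxide-removing enzyme, stood at 23.6 and 17.3 CPM in the homozygous libraries, 31.9 and 35.2 in the heterozygous and 38.4 and 42.8 in the wild-type ones (log2 difference -0.99 ± 0.16 SE, adjusted p = 0.000416, DESeq2). Both homozygous libraries were below the other 4. Near-identical peroxidase genes lie beside it, so its counts may hold reads of these. TPX2 lost its DESeq2 call without homozygous replicate 2 (adjusted p = 0.144). Of 6 tested peroxide scavenging genes 5 were below wild type. Their median of -0.0590 was smaller in size than the shift that total-count scaling brings, and CAT3, a catalase gene, was at 1830 and 2134 CPM in homozygous against 1844 and 2131 in wild-type siliques.

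Of the 4 ferritin genes 3 were below wild type in homozygous siliques, 1 of them with a call. FER1, a ferritin gene whose protein stores iron in plastids and whose transcript is known to rise with iron supply, stood at 164 and 164 CPM in the homozygous libraries, 201 and 188 in the heterozygous and 252 and 296 in the wild-type ones. The genotypes did not overlap, with heterozygous libraries between the others (log2 difference -0.74 ± 0.12 SE, adjusted p = 1.38e-05, DESeq2). FER4 was at 31.4 and 31.5 CPM in homozygous against 36.8 and 37.1 in wild-type siliques and FER3 at 55.97 and 45.4 CPM in homozygous against 56.7 and 59.3 in wild-type siliques, both below wild type without a call, while FER2, the ferritin gene of seeds, was above wild type at 3.04 and 1.91 CPM in homozygous against 1.59 and 1.61 in wild-type siliques. On the side of iron deficiency, FRO3, a mitochondrial ferric reductase gene, was at 13.4 and 12.8 CPM in homozygous against 6.13 and 9.70 in wild-type siliques (log2 difference 0.73 ± 0.23 SE). BHLH38, a transcription factor gene induced by iron shortage, was at 0.298 and 0.307 CPM in the homozygous libraries and had 0 counts in both wild-type ones, where 3 counts allow up to 0.0811 and 0.107 CPM. Neither FRO3 nor BHLH38 was called (adjusted p = 0.309, DESeq2, and no adjusted p for BHLH38). IRT1, the root iron uptake gene, had 0 counts in all 6 libraries. OPT3, an iron transporter gene of the phloem, overlapped between genotypes at 260.3 and 245 CPM in homozygous against 208 and 251 in wild-type siliques. Of 16 tested iron genes, 9 were above and 7 below wild type. Without overlap were 6 and 4, beside 16.8% and 17.3% of all tested genes. The median of 0.16 was -0.23 without homozygous replicate 1 and ran up to 0.32 without homozygous replicate 2.

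Of 11 tested genes for cutin, wax and lipid transfer, which build the lipid layer on the surface of the fruit, 1 was called, CER1, and it was lower in homozygous siliques. CER1, of the step that makes the alkanes of wax, stood at 1327 and 1436 CPM in the homozygous libraries, 1400 and 1444 in the heterozygous and 1985 and 1747 in the wild-type ones (log2 difference -0.43 ± 0.14 SE, adjusted p = 0.0487, DESeq2). The homozygous libraries overlapped the heterozygous ones and lay below the wild-type ones. CYP86A4, MYB31 and LPAT5 are not on that list and are placed here after their calls were seen. CYP86A4, a fatty acid hydroxylase gene of cutin synthesis, stood at 26.9 and 30.1 CPM in the homozygous libraries, 37.4 and 31.99 in the heterozygous and 54.3 and 46.4 in the wild-type ones. Both homozygous libraries were below the other 4 (log2 difference -0.82 ± 0.14 SE, adjusted p = 0.000826, DESeq2). MYB31, a transcription factor gene of the MYB family, was at 33.97 and 34.4 CPM in homozygous against 60.95 and 49.1 in wild-type siliques (log2 difference -0.69, adjusted p = 0.00623, DESeq2). LPAT5, a lysophosphatidyl acyltransferase gene, was at 73.1 and 71.2 CPM in homozygous against 109 and 97.3 in wild-type siliques (log2 difference -0.52, adjusted p = 0.0139, DESeq2).

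DCR, an acyltransferase gene needed for cutin, was at 484 and 488 CPM in homozygous against 777 and 651 in wild-type siliques and missed the call (log2 difference -0.55 ± 0.16 SE, adjusted p = 0.0635, DESeq2). GPAT4, which makes cutin precursors, was at 116 and 158 CPM in homozygous against 194 and 162 in wild-type siliques (log2 difference -0.38), and ABCG11, a transporter of cuticular lipids, at 530.3 and 577 CPM in homozygous against 675 and 606 in wild-type siliques (log2 difference -0.21). All 11 tested members of the cutin, wax and lipid transfer list were below wild type, while 48.3% of all genes were below and 51.7% above. Of these 11, 6 lay below without overlap, beside 17.3% of all tested genes. The median was -0.24, and -0.49 to -0.15 when 1 library was left out. CER3, which acts with CER1 in alkane synthesis, overlapped at 982 and 957 CPM in homozygous against 972 and 1122 in wild-type siliques. CYP86A4 lost its DESeq2 call without homozygous replicate 1 or wild type replicate 1 (adjusted p = 0.0839 to 0.200). CER1 lost its DESeq2 call without any one of the 4 libraries (adjusted p = 0.0633 to 0.9999). MYB31 lost its DESeq2 call without homozygous replicate 1, homozygous replicate 2 or wild type replicate 1 (adjusted p = 0.163 to 0.751). LPAT5 lost its DESeq2 call without any one of the 4 libraries (adjusted p = 0.0571 to 0.904).

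**Figure D3:**
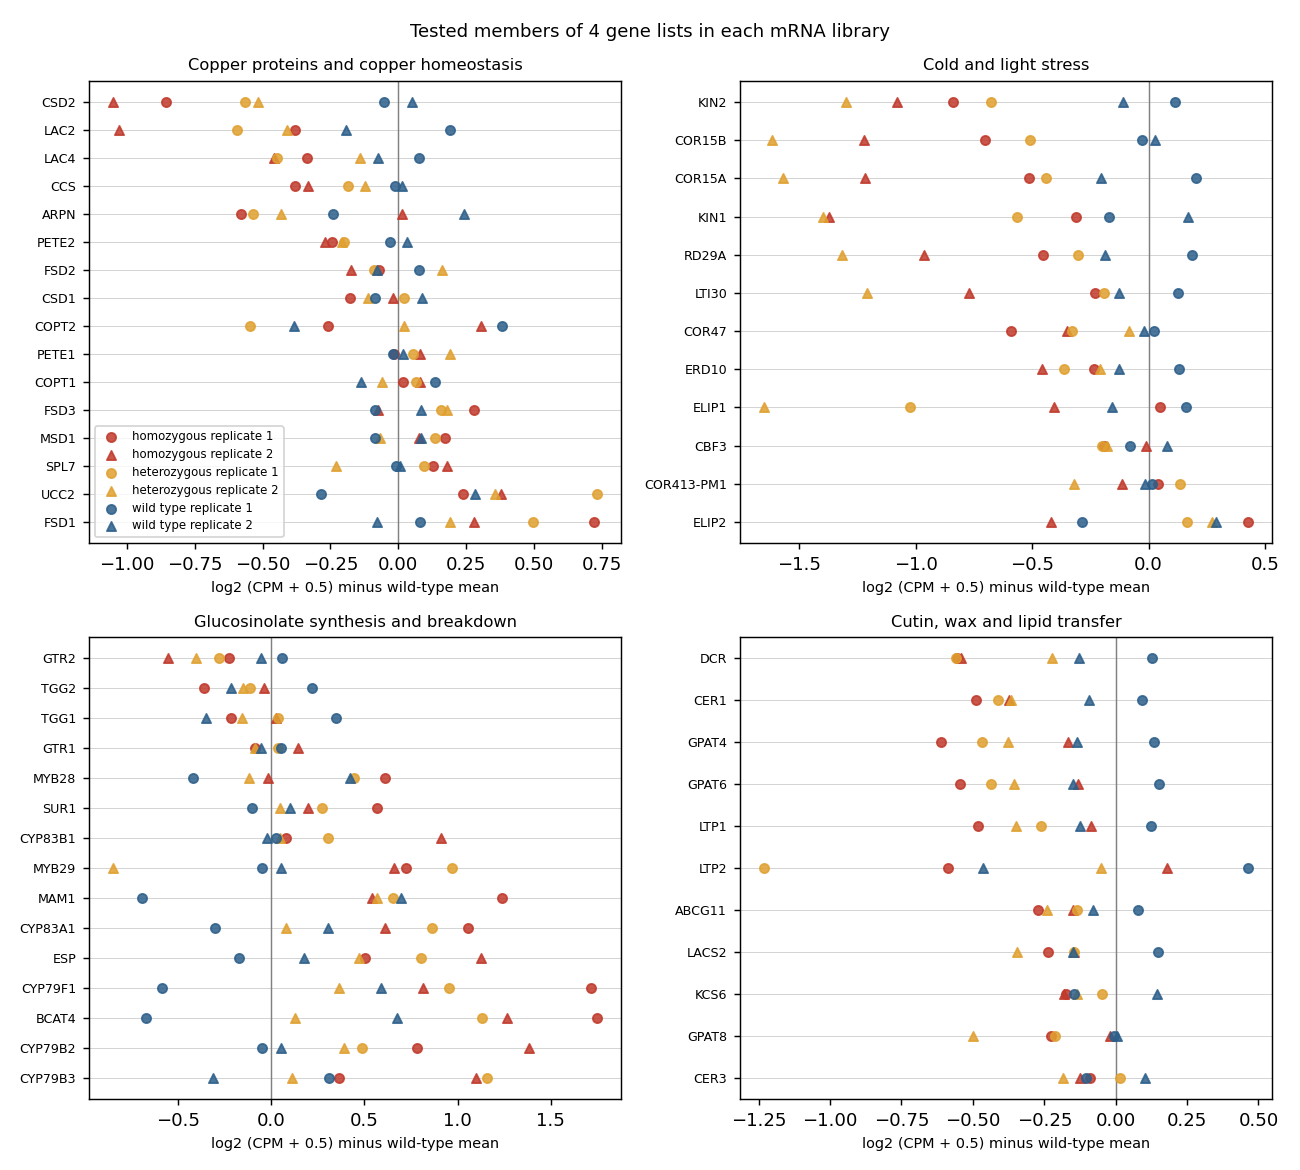
Tested members of the copper, cold and light stress, glucosinolate and cuticle lists in each of the 6 mRNA libraries. The x axis is log2 of CPM plus 0.5 minus the wild-type mean, colours give the genotype and shapes the replicate. CSD2 and KIN2 lie to the left in their panels with both homozygous libraries below both wild-type ones, and most glucosinolate genes lie to the right.

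Cell wall genes went in both directions. EXPA1, an expansin gene whose protein loosens the wall during growth, stood at 336 and 372 CPM in the homozygous libraries, 282 and 299.7 in the heterozygous and 209 and 254 in the wild-type ones. The homozygous libraries were the highest and the wild-type ones the lowest (log2 difference 0.61 ± 0.13 SE, adjusted p = 0.00557, DESeq2). Its family did not share this: 9 of 20 tested expansin genes were above and 11 below wild type. Without overlap were 3 each, beside 16.8% and 17.3% of all tested genes. EXPB4 was at 2.14 and 4.52 CPM in homozygous against 6.87 and 6.41 in wild-type siliques (log2 difference -0.996). Xyloglucan endotransglucosylase genes, whose enzymes cut and rejoin wall polymers, were above wild type in 11 of 24 and below in 13.

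Other called genes with products of the cell wall or its synthesis were lower, and PRP4, GT18, EXL5 and AGP24 were grouped after their calls were seen. PRP4, a proline-rich wall protein gene, stood at 822 and 1022 CPM in the homozygous libraries, 1006 and 1007 in the heterozygous and 1408 and 1318 in the wild-type ones (log2 difference -0.56 ± 0.15 SE, adjusted p = 0.0135, DESeq2). GT18, a galactosyltransferase gene of xyloglucan side chains, was at 77.3 and 87.4 CPM in homozygous against 118 and 116 in wild-type siliques (log2 difference -0.51, adjusted p = 0.0411, DESeq2), and EXL5, an EXORDIUM-like gene, at 89.4 and 111 CPM in homozygous against 184 and 156 in wild-type siliques (log2 difference -0.76, adjusted p = 0.00199, DESeq2). AGP24, an arabinogalactan protein gene, was at 17.4 and 16.5 CPM in homozygous against 26.7 and 30.01 in wild-type siliques (log2 difference -0.74, adjusted p = 0.00557, DESeq2). In all of these genes both homozygous libraries lay below both wild-type ones. Among the fasciclin-like arabinogalactan proteins, surface proteins with adhesion domains, 12 of 15 tested genes were below wild type and 1 was called. Below without overlap were 7 and above 0, beside 17.3% and 16.8% of all tested genes. FLA3, which is known from pollen, was called at 24.1 and 15.4 CPM in homozygous against 42.2 and 33.98 in wild-type siliques (log2 difference -0.95, adjusted p = 0.0485, DESeq2). FLA10, at 525 and 624 CPM in homozygous against 894 and 749 in wild-type siliques, and FLA16, at 314 and 345 CPM in homozygous against 370.4 and 385 in wild-type siliques, were not called (log2 differences -0.52 and -0.20). The list median was -0.20 and ran from -0.30 to -0.0868 when 1 library was left out. EXPA1 lost its DESeq2 call without homozygous replicate 2 or wild type replicate 1 (adjusted p = 0.414 to 0.430). PRP4 lost its DESeq2 call without homozygous replicate 1 or wild type replicate 1 (adjusted p = 0.391 to 0.427). GT18 lost its DESeq2 call without any one of the 4 libraries (adjusted p = 0.235 to 0.793). EXL5 lost its DESeq2 call without homozygous replicate 1 or wild type replicate 1 (adjusted p = 0.108 to 0.169). AGP24 lost its DESeq2 call without any one of the 4 libraries (adjusted p = 0.125 to 0.505). FLA3 lost its DESeq2 call without homozygous replicate 2 or wild type replicate 1 (adjusted p = 0.708 to 0.795).

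Of 12 tested cold and light stress genes 1 was called, KIN2, and it was lower in homozygous siliques. KIN2, a cold- and drought-induced gene, stood at 62.4 and 52.8 CPM in the homozygous libraries, 69.98 and 45.4 in the heterozygous and 121 and 104 in the wild-type ones (log2 difference -0.97 ± 0.20 SE, adjusted p = 0.00374, DESeq2). The homozygous libraries overlapped the heterozygous ones and lay below both wild-type libraries. COR15B, a chloroplast-targeted cold protein gene, was at 76.4 and 53.1 CPM in the homozygous libraries, 87.4 and 40.3 in the heterozygous and 122 and 127 in the wild-type ones (log2 difference -0.94 ± 0.33 SE, adjusted p = 0.796, DESeq2), and RD29A, a stress marker gene, at 52.6 and 36.8 CPM in the homozygous libraries, 58.5 and 28.7 in the heterozygous and 82.4 and 63.4 in the wild-type ones (log2 difference -0.71, adjusted p = 0.9999, DESeq2). Heterozygous replicate 2 was the lowest of the 6 libraries for each of these 3 genes. The SE that DESeq2 gave for COR15B was larger, 0.48. COR47 and ERD10, which encode dehydrins, were at 178 and 209.8 CPM in homozygous against 272 and 264 in wild-type siliques and at 155 and 132 CPM in homozygous against 199 and 166 in wild-type siliques (log2 differences -0.47 and -0.35). Of the 12, 11 were below wild type. Below without overlap were 8 and above 0, beside 17.3% and 16.8% of all tested genes. The median was -0.48 and ran from -0.63 to -0.31 when 1 library was left out. The exception above wild type was ELIP2, an early light-induced gene, at 38.4 and 21.1 CPM in homozygous against 23.2 and 34.8 in wild-type siliques, with overlap. KIN2 lost its DESeq2 call without homozygous replicate 2 or wild type replicate 1 (adjusted p = 0.113 to 0.174).

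Jasmonate is a wound and defence hormone, and 0 of 13 tested genes on the list of its pathway were called. TIFY7, which is not on that list, was called. TIFY7, also named JAZ9, encodes a repressor of jasmonate responses that jasmonate itself induces, and stood at 153 and 281 CPM in the homozygous libraries, 156 and 113 in the heterozygous and 106 and 104 in the wild-type ones (log2 difference 1.05 ± 0.28 SE, adjusted p = 0.0145, DESeq2). Homozygous replicate 2 was by far the highest library, and heterozygous replicate 1 was level with homozygous replicate 1. The difference was 0.55 without homozygous replicate 2. LOX2, of the first step of jasmonate synthesis, was at 795 and 1236 CPM in the homozygous libraries, 763 and 637 in the heterozygous and 700 and 631 in the wild-type ones (log2 difference 0.61 ± 0.21 SE, adjusted p = 0.197, DESeq2). VSP2, a storage protein gene induced by jasmonate, was at 869 and 2169 CPM in the homozygous libraries, 1009 and 587 in the heterozygous and 359 and 478 in the wild-type ones (log2 difference 1.86 ± 0.43 SE, adjusted p = 0.202, DESeq2). The SE that DESeq2 gave for VSP2 was larger, 0.61. MYC2, the main transcription factor of the pathway, was at 57.4 and 103 CPM in homozygous against 58.3 and 50.8 in wild-type siliques, where homozygous replicate 1 overlapped wild type. All 13 tested members of the list were above wild type, 6 without overlap, beside 16.8% of all tested genes. The median was 0.61, and 0.28 without homozygous replicate 2 and wild type replicate 1. Homozygous replicate 2 was the highest of the 6 libraries for each gene named here. TIFY7 lost its DESeq2 call without homozygous replicate 2, wild type replicate 1 or wild type replicate 2 (adjusted p = 0.739 to 0.9999).

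Of 15 tested genes for glucosinolates, the sulphur-rich defence compounds of the cabbage family, 1 was called, ESP, and it was higher. ESP, the epithiospecifier protein that directs glucosinolate breakdown towards nitriles, stood at 61.7 and 95.4 CPM in the homozygous libraries, 76.2 and 60.3 in the heterozygous and 38.4 and 49.1 in the wild-type ones (log2 difference 0.85 ± 0.23 SE, adjusted p = 0.0485, DESeq2). The homozygous and heterozygous libraries overlapped, and the wild-type libraries were lowest. The difference was 0.50 without homozygous replicate 2. BCAT4, of methionine chain elongation, the start of the aliphatic branch, stood at 118 and 84.2 CPM in the homozygous libraries, 76.6 and 37.9 in the heterozygous and 21.6 and 55.6 in the wild-type ones (log2 difference 1.39 ± 0.47 SE, adjusted p = 0.762, DESeq2). The SE that DESeq2 gave for BCAT4 was larger, 0.68. CYP79F1, which converts the elongated methionine, was at 133 and 71.1 CPM in the homozygous libraries, 78.5 and 51.96 in the heterozygous and 26.6 and 60.7 in the wild-type ones (log2 difference 1.23 ± 0.43 SE). CYP83A1, the next enzyme, was at 136 and 99.6 CPM in homozygous against 52.7 and 80.3 in wild-type siliques (log2 difference 0.83). Wild type replicate 1 was the lowest library for these 3 aliphatic genes, and wild type replicate 2 was above heterozygous replicate 2. CYP79B2, of the branch made from tryptophan, was at 1.94 and 3.20 CPM in homozygous against 0.865 and 0.967 in wild-type siliques (log2 difference 1.49 ± 0.39 SE). The transporter gene GTR2, needed to bring glucosinolates into seeds, was at 82.6 and 65.8 CPM in homozygous against 101 and 92.9 in wild-type siliques (log2 difference -0.38), and the myrosinase genes TGG1 and TGG2 overlapped. In all, 12 of the 15 were above wild type and 3 below. Without overlap were 9 and 1, beside 16.8% and 17.3% of all tested genes. The median of 0.77 ran from 0.55 to 0.83 when 1 library was left out. ESP lost its DESeq2 call without homozygous replicate 2 or wild type replicate 1 (adjusted p = 0.674 to 0.9999).

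HIS4, a histone H4 gene, was the called gene with the largest difference above wild type. It stood at 13.5 and 13.4 CPM in the homozygous libraries, 10.1 and 8.80 in the heterozygous and 6.41 and 5.73 in the wild-type ones. The genotypes did not overlap and the heterozygous libraries lay between (log2 difference 1.15 ± 0.16 SE, adjusted p = 0.000156, DESeq2). Histone H4 is made from several genes of near-identical protein, and reads may be divided among them. HTA9 and HTA11, which encode the H2A.Z variant, were at 51.95 and 47.98 CPM in homozygous against 34.8 and 39.5 in wild-type siliques and at 40.6 and 40.5 CPM in homozygous against 33.3 and 34.95 in wild-type siliques (log2 differences 0.43 and 0.25). HTA13, a canonical H2A gene, was at 18.7 and 18.8 CPM in homozygous against 12.6 and 16.5 in wild-type siliques (log2 difference 0.37), while HTB1, an H2B gene, was at 91.9 and 81.6 CPM in homozygous against 99.1 and 109 in wild-type siliques (log2 difference -0.26). Of 17 tested histone genes 13 were above wild type and 4 below, and only HIS4 was called. Without overlap were 7 and 1, beside 16.8% and 17.3% of all tested genes. The median was 0.14, 0.0523 without homozygous replicate 1 and 0.21 without homozygous replicate 2. DNA replication and cell division genes were above wild type in 14 of 17 with a median of 0.12, and -0.00998 without homozygous replicate 1. HIS4 lost its DESeq2 call without homozygous replicate 1 or homozygous replicate 2 (adjusted p = 0.0698 to 0.154).

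Of 19 tested genes of the small RNA and DNA methylation machinery 0 were called by DESeq2 or edgeR. CMT3, a DNA methyltransferase gene of CHG sites, stood at 47.8 and 50.9 CPM in the homozygous libraries, 38.8 and 45.4 in the heterozygous and 39.9 and 35.95 in the wild-type ones (log2 difference 0.38 ± 0.12 SE, adjusted p = 0.482, DESeq2). SGS3, which acts with the RNA polymerase that makes double-stranded RNA, was at 25.4 and 30.8 CPM in the homozygous libraries, 28.3 and 32.6 in the heterozygous and 23.7 and 19.8 in the wild-type ones (log2 difference 0.37 ± 0.15 SE). DCL1, the enzyme that cuts microRNAs from their precursors, was at 63.1 and 68.4 CPM in the homozygous libraries, 58.2 and 62.5 in the heterozygous and 55.8 and 56.4 in the wild-type ones (log2 difference 0.23 ± 0.0999 SE). IDN2, a double-stranded RNA binding protein gene of RNA-directed DNA methylation, was at 42.4 and 39.1 CPM in the homozygous libraries, 48.03 and 52.6 in the heterozygous and 34.8 and 33.8 in the wild-type ones, where the heterozygous libraries were the highest (log2 difference 0.25 ± 0.11 SE). Of the 19, 17 were above wild type, beside 51.7% of all tested genes. Above without overlap were 9 and below 0, beside 16.8% and 17.3%. The median was 0.13 beside 0.00814 for all genes, and it ran from 0.11 to 0.15 when 1 library was left out.

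**Figure D4:**
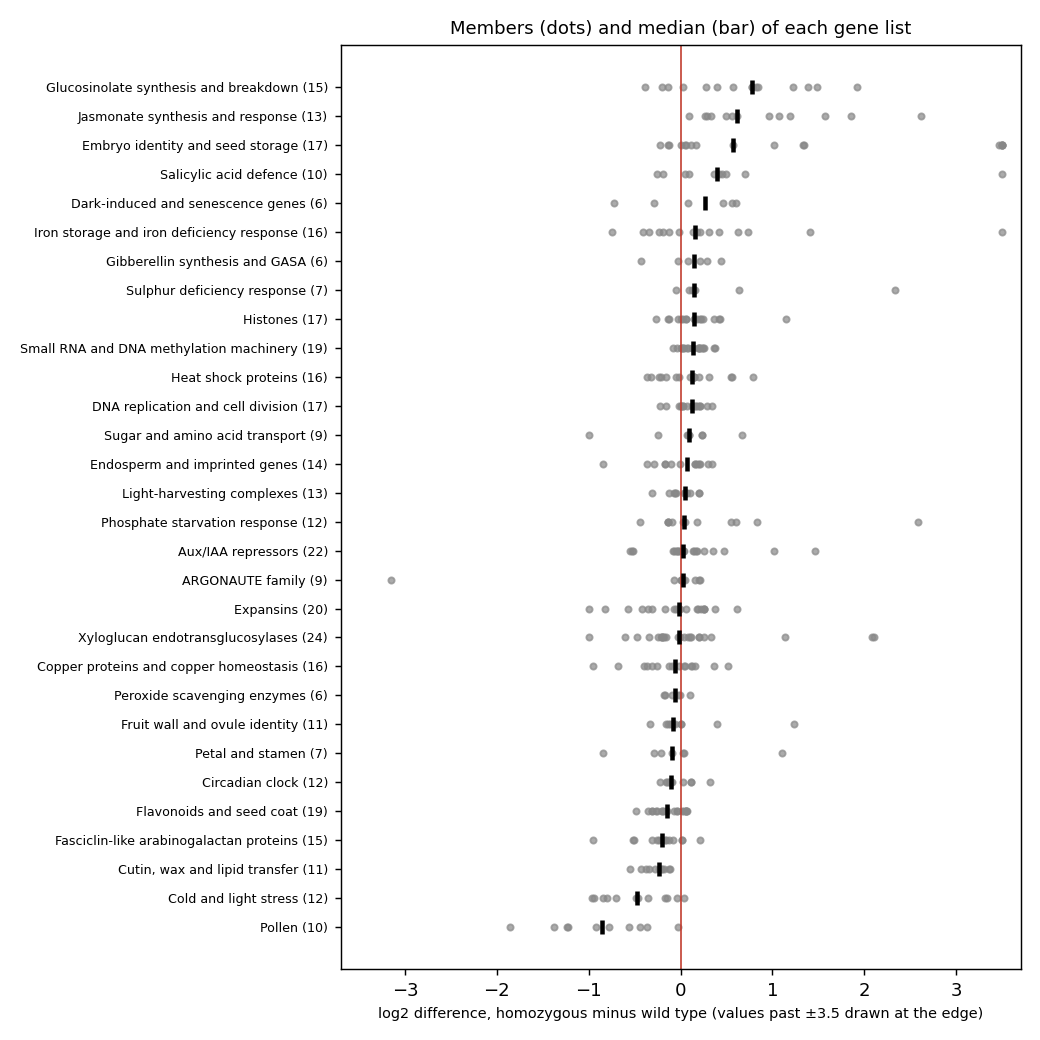
Log2 difference of homozygous minus wild-type siliques for the tested members (dots) and the median (bar) of each of 30 gene lists, with the number tested in parentheses. The red line is the median of all 22702 genes, 0.00814, and values past 3.5 in size are drawn at the edge. Glucosinolate, jasmonate and seed storage lists lie to the right and pollen, cold and cuticle lists to the left.

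Nutrient and metabolic genes gave further calls. SPX1, a phosphate sensor that restrains the phosphate starvation response and is itself induced by starvation, stood at 15.1 and 13.2 CPM in the homozygous libraries, 9.62 and 9.25 in the heterozygous and 8.60 and 7.27 in the wild-type ones (log2 difference 0.83 ± 0.16 SE, adjusted p = 0.0286, DESeq2). The homozygous libraries were the highest and the wild-type ones the lowest. PPCK1, a kinase gene of phosphoenolpyruvate carboxylase that is induced by phosphate shortage, was at 54.4 and 52.3 CPM in homozygous against 32.3 and 40.8 in wild-type siliques (log2 difference 0.55 ± 0.17 SE), and PAP17, an acid phosphatase gene, at 15.2 and 8.97 CPM in homozygous against 7.22 and 8.74 in wild-type siliques (log2 difference 0.60). Neither was called, and in the phosphate list 7 of 12 tested genes were above and 5 below wild type. APR1, of sulphate reduction, was at 82.05 and 74.2 CPM in the homozygous libraries, 70.04 and 53.2 in the heterozygous and 43.4 and 57.5 in the wild-type ones (log2 difference 0.63 ± 0.18 SE, adjusted p = 0.131, DESeq2), and 6 of 7 sulphur genes were above wild type.

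FUM2, the cytosolic fumarase gene, stood at 41.3 and 83.1 CPM in the homozygous libraries, 62.1 and 50.5 in the heterozygous and 24.97 and 32.9 in the wild-type ones (log2 difference 1.11 ± 0.31 SE, adjusted p = 0.0348, DESeq2). The homozygous libraries lay above wild type but overlapped the heterozygous ones, and the difference was 0.52 without homozygous replicate 2. CML41, a calmodulin-like protein gene, stood at 12.2 and 11.7 CPM in the homozygous libraries, 6.51 and 5.11 in the heterozygous and 4.59 and 6.80 in the wild-type ones (log2 difference 1.07 ± 0.24 SE, adjusted p = 0.0318, DESeq2). Only the homozygous libraries were high. SWEET17, a fructose transporter gene of the vacuole, was at 39.1 and 40.02 CPM in the homozygous libraries, 38.1 and 31.9 in the heterozygous and 27.4 and 27.2 in the wild-type ones (log2 difference 0.54 ± 0.12 SE) and missed the call (adjusted p = 0.0713, DESeq2). GAMMA-TIP, a water channel gene of the vacuole membrane, was lower at 146 and 158 CPM in the homozygous libraries, 232 and 229.7 in the heterozygous and 211 and 246 in the wild-type ones (log2 difference -0.59 ± 0.12 SE, adjusted p = 0.00276, DESeq2), with the heterozygous libraries level with wild type. MEE9, named for an embryo arrest seen in its mutant, was lower at 25.3 and 27.4 CPM in the homozygous libraries, 28.7 and 32.05 in the heterozygous and 41.5 and 50.2 in the wild-type ones (log2 difference -0.80 ± 0.13 SE, adjusted p = 0.00188, DESeq2). SPX1 lost its DESeq2 call without any one of the 4 libraries (adjusted p = 0.233 to 0.828). FUM2 lost its DESeq2 call without homozygous replicate 2, wild type replicate 1 or wild type replicate 2 (adjusted p = 0.686 to 0.9999). CML41 lost its DESeq2 call without homozygous replicate 1, homozygous replicate 2 or wild type replicate 1 (adjusted p = 0.473 to 0.959). GAMMA-TIP lost its DESeq2 call without homozygous replicate 1, homozygous replicate 2 or wild type replicate 2 (adjusted p = 0.0909 to 0.186). MEE9 lost its DESeq2 call without homozygous replicate 1, homozygous replicate 2 or wild type replicate 2 (adjusted p = 0.0762 to 0.155).

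FLS1, the flavonol synthase gene, stood at 92.3 and 91.2 CPM in the homozygous libraries, 92.3 and 90.1 in the heterozygous and 132 and 124 in the wild-type ones (log2 difference -0.48 ± 0.0982 SE, adjusted p = 0.00930, DESeq2). The homozygous and heterozygous libraries were at 1 level and the wild-type ones above it. Of 19 tested flavonoid and seed coat genes 13 were below wild type. Below without overlap were 5 and above 0, beside 17.3% and 16.8% of all tested genes. The median was -0.14, and -0.0726 without homozygous replicate 1. CHIL, a chalcone isomerase-like gene, was at 329 and 339.5 CPM in homozygous against 436 and 396 in wild-type siliques (log2 difference -0.32), TT7, the flavonoid hydroxylase gene, at 374 and 430.1 CPM in homozygous against 494 and 467 in wild-type siliques (log2 difference -0.26) and TT4, the chalcone synthase gene, at 644 and 697 CPM in homozygous against 773 and 773 in wild-type siliques (log2 difference -0.20). FLS1 lost its DESeq2 call without any one of the 4 libraries (adjusted p = 0.125 to 0.801).

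Pollen genes were among the lower calls, and 6 of the 66 are on the pollen list or named for pollen in the gene table. These 6 are AGP11, AGP6, BCP1, SPIK, PRK2A and LIP2. The same count was not made over all tested genes, so 6 of 66 cannot be read as many or few. Genes known from pollen but not so named are left out of it. AGP11, a pollen arabinogalactan protein gene, was at 7.26 and 8.94 CPM in the homozygous libraries, 15.3 and 28.1 in the heterozygous and 26.8 and 32.1 in the wild-type ones (log2 difference -1.86 ± 0.28 SE, adjusted p = 4.51e-07, DESeq2). BCP1, a gene of pollen and the tapetum, was at 10.8 and 7.44 CPM in the homozygous libraries, 17.3 and 23.02 in the heterozygous and 22.3 and 25.1 in the wild-type ones (log2 difference -1.38 ± 0.22 SE, adjusted p = 3.71e-05, DESeq2). For both the homozygous libraries were the lowest, and the heterozygous ones were on average nearer to wild type. AGP6 was at 14.7 and 9.90 CPM in homozygous against 32.2 and 25.5 in wild-type siliques (log2 difference -1.23 ± 0.29 SE, adjusted p = 0.0133, DESeq2). Its heterozygous libraries, at 19.3 and 33.1 CPM, overlapped the wild-type ones. AGP6 lost its DESeq2 call without homozygous replicate 2 or wild type replicate 1. SPIK, a potassium channel gene of pollen, was at 4.20 and 4.06 CPM in the homozygous libraries, 8.73 and 10.2 in the heterozygous and 9.22 and 7.77 in the wild-type ones (log2 difference -1.04 ± 0.19 SE, adjusted p = 0.0134, DESeq2), and PRK2A, a pollen receptor kinase gene, at 14.9 and 9.84 CPM in the homozygous libraries, 21.8 and 28.9 in the heterozygous and 28.9 and 22.3 in the wild-type ones (log2 difference -1.05 ± 0.24 SE, adjusted p = 0.0174, DESeq2). LIP2, a kinase gene named for pollen tube guidance, was at 12.03 and 8.91 CPM in homozygous against 20.2 and 18.3 in wild-type siliques (log2 difference -0.88, adjusted p = 0.0432, DESeq2).

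ACA9, CHX23 and RALFL19 are likewise known from pollen and were called. ACA9, a calcium pump gene, was at 6.64 and 4.55 CPM in homozygous against 11.8 and 10.2 in wild-type siliques (log2 difference -0.97, adjusted p = 0.0484, DESeq2). CHX23, a cation exchanger gene, was at 18.7 and 13.6 CPM in homozygous against 33.4 and 27.8 in wild-type siliques (log2 difference -0.92, adjusted p = 0.0135, DESeq2). RALFL19, of a family of secreted signal peptides, was at 5.06 and 3.26 CPM in homozygous against 10.3 and 9.13 in wild-type siliques (log2 difference -1.23, adjusted p = 0.0223, DESeq2), and CWINV2, a cell wall invertase gene, at 12.9 and 8.88 CPM in homozygous against 25.4 and 18.2 in wild-type siliques (log2 difference -0.999, adjusted p = 0.0411, DESeq2). In each of these the libraries did not overlap, and homozygous replicate 2 was below homozygous replicate 1. HVA22J, of a stress-induced membrane protein family, showed the same pattern at 12.5 and 8.82 CPM in the homozygous libraries, 19.01 and 25.4 in the heterozygous and 28.1 and 21.3 in the wild-type ones (log2 difference -1.21 ± 0.23 SE, adjusted p = 0.00199, DESeq2).

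The 10 tested genes of the pollen list summed to 174 and 113 CPM in the homozygous libraries, 226 and 316 in the heterozygous and 277 and 237 in the wild-type ones. All 10 were below wild type, 6 without overlap beside 17.3% of all tested genes, and 3 were called. The median of -0.85 was -0.25 without homozygous replicate 2 and wild type replicate 1. MGH3, the histone gene of sperm cells on this list, stood at 0.119 CPM or less in every library and was not tested. Petal and stamen genes were above wild type in 3 and below in 4 of 7. Of the 7, 3 lay below without overlap and 0 above, beside 17.3% and 16.8% of all tested genes. AP1, a floral identity gene, was at 9.82 and 7.71 CPM in homozygous against 18.5 and 13 in wild-type siliques (log2 difference -0.85 ± 0.21 SE, adjusted p = 0.110, DESeq2). AP3 was at 76.4 and 75.8 CPM in homozygous against 83.5 and 103 in wild-type siliques, and PI at 3.07 and 3.44 against 3.76 and 3.76. None of the 3 was called. The part of floral remnants or of pollen on the fruit in these values was not tested. SPIK lost its DESeq2 call without any one of the 4 libraries (adjusted p = 0.0784 to 0.824). PRK2A lost its DESeq2 call without homozygous replicate 2 or wild type replicate 1 (adjusted p = 0.544 to 0.572). LIP2 lost its DESeq2 call without homozygous replicate 2, wild type replicate 1 or wild type replicate 2 (adjusted p = 0.115 to 0.889). ACA9 lost its DESeq2 call without homozygous replicate 2, wild type replicate 1 or wild type replicate 2 (adjusted p = 0.147 to 0.9999). CHX23 lost its DESeq2 call without homozygous replicate 2 or wild type replicate 1 (adjusted p = 0.495 to 0.548). RALFL19 lost its DESeq2 call without homozygous replicate 2, wild type replicate 1 or wild type replicate 2 (adjusted p = 0.0986 to 0.757). CWINV2 lost its DESeq2 call without homozygous replicate 2 or wild type replicate 1 (adjusted p = 0.757 to 0.959). HVA22J lost its DESeq2 call without homozygous replicate 2 or wild type replicate 1 (adjusted p = 0.167 to 0.183).

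Some of the firmest differences were at loci without a gene name in the table used. AT4G06945, annotated as a long non-coding RNA, stood at 4.20 and 5.66 CPM in the homozygous libraries, 9.28 and 9.42 in the heterozygous and 22.4 and 18.1 in the wild-type ones (log2 difference -2.04 ± 0.20 SE, adjusted p = 5.95e-14, DESeq2). AT4G34290, a protein-coding locus, stood at 35.2 and 36.1 CPM in the homozygous libraries, 44.6 and 54.6 in the heterozygous and 66.5 and 69.9 in the wild-type ones (log2 difference -0.93 ± 0.12 SE, adjusted p = 2.48e-06, DESeq2). Both showed the order homozygous, heterozygous, wild type with no overlap and were among the 7 genes called whichever library was left out. AT4G29640 was higher at 26.6 and 32.5 CPM in the homozygous libraries, 10.9 and 12.8 in the heterozygous and 16.7 and 10.6 in the wild-type ones (log2 difference 1.11 ± 0.23 SE, adjusted p = 0.00525, DESeq2), with the heterozygous libraries level with wild type. AT1G21440 was higher at 93.96 and 84.5 CPM in the homozygous libraries, 78.8 and 76.6 in the heterozygous and 62.6 and 64.2 in the wild-type ones (log2 difference 0.49 ± 0.10 SE, adjusted p = 0.0225, DESeq2), with the heterozygous libraries between. AT5G04425, a small nucleolar RNA, was lower at 3.57 and 2.98 CPM in the homozygous libraries, 7.91 and 7.05 in the heterozygous and 6.89 and 12.6 in the wild-type ones (log2 difference -1.57 ± 0.30 SE, adjusted p = 0.00283, DESeq2). Small nucleolar RNA AT2G08770 lies inside AT2G35750, and their counts were nearly the same, at 106 and 91.7 CPM in homozygous against 168 and 185 in wild-type siliques and at 108 and 93.1 CPM in homozygous against 169.9 and 186 in wild-type siliques, so they are 1 signal called under 2 names. Likewise U4.2 and ENSRNA049495668 held the same values in all 6 libraries, and both are counted among the 76. They were lower at 15.1 and 15.6 CPM in homozygous against 22.4 and 46.5 in wild-type siliques (log2 difference -1.16, adjusted p = 0.0348, DESeq2). Wild type replicate 2, where structural RNA rows took 8.13% of the counts, was the highest library for both. Without it the log2 difference was -0.55, and both lost their DESeq2 call. Their call was also lost without homozygous replicate 1 or homozygous replicate 2. AT4G29640 lost its DESeq2 call without homozygous replicate 2 or wild type replicate 2 (adjusted p = 0.111 to 0.369). AT1G21440 lost its DESeq2 call without any one of the 4 libraries (adjusted p = 0.234 to 0.828). AT5G04425 lost its DESeq2 call without homozygous replicate 2 or wild type replicate 2 (adjusted p = 0.183 to 0.265). AT2G08770 lost its DESeq2 call without homozygous replicate 2 or wild type replicate 2 (adjusted p = 0.0583 to 0.232). AT2G35750 lost its DESeq2 call without homozygous replicate 2 or wild type replicate 2 (adjusted p = 0.0556 to 0.229).

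The lists of other tissues and responses given here held 0 calls. Of 17 tested genes of embryo identity and seed storage, 14 were above wild type. Of the 17, 0 were free of overlap (16.8% above and 17.3% below over all genes). The median was 0.57, and -0.43 without homozygous replicate 1. CRU1, a seed storage globulin gene, stood at 17.3 and 0.307 CPM in the homozygous libraries, 6.25 and 30.5 in the heterozygous and 0.0541 and 1.36 in the wild-type ones, so that the genotypes overlapped. Salicylic acid defence genes had a median of 0.39, and -0.20 without homozygous replicate 2, in which PR2, a glucanase gene, stood at 15.6 CPM. Endosperm and imprinted genes were above wild type in 7 and below in 7 of 14, fruit wall and ovule identity genes in 4 and 7 of 11, and light-harvesting genes in 8 and 5 of 13. NST1, a transcription factor gene of secondary walls in the valves, was at 37.99 and 44.6 CPM in homozygous against 54 and 49.9 in wild-type siliques (log2 difference -0.33, adjusted p = 0.633, DESeq2). Heat shock protein genes were above wild type in 9 and below in 7 of 16, and Aux/IAA repressor genes of the auxin response in 13 and 9 of 22. Circadian clock genes were above in 4 and below in 8 of 12, and 3 and 5 did not overlap (16.8% and 17.3% over all genes). Their median was -0.11, and -0.0583 without homozygous replicate 1. Of the 30 lists, 18 had a median above that of all genes.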

How the data were processed

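The mRNA values deposited by the authors were estimated counts for each gene without any scaling, and 7.88% of them were not whole. Per the submitters' processing notes HISAT2, featureCounts and the build TAIR10 were used. The sources used here give neither versions nor the strand setting, so reads of overlapping, antisense or near-identical genes cannot be told apart. Counts were rounded. Of 34262 rows, 22702 passed edgeR's filterByExpr, 1429 were structural RNA rows, and 32548 matched a locus tag of a RefSeq table (TAIR10.1), which gave the names.

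The quasi-likelihood model of edgeR 4.0.16, run under R 4.3.3 with limma 3.58.1 and TMM factors, was fitted to all 6 mRNA libraries by genotype, with Benjamini-Hochberg adjustment at 0.05. It left 3 residual degrees of freedom, and the common biological coefficient of variation was 0.185. The SE of a difference is its size divided by the root of F, so it is not the SE behind an adjusted p of DESeq2. DESeq2 1.42.0 was the alternative tool, on all rows with a count. The labels do not say whether the 2 biological samples of a genotype came from separate plants, so p-values measure only the spread between these samples. Scripts were tested on simulated data, where both tools made more false calls than the nominal rate and DESeq2 more than edgeR. Figures used Python 3.11.15 and matplotlib 3.10.9.

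The rule for named genes took AGO3 and AGO2, up to 12 higher and 20 lower DESeq2 calls with at least 2 CPM, the 10 genes on each side of smallest edgeR p without overlap among those whose mean log2 CPM reached 1, and from each list up to 4 members without overlap and the most abundant one. Other genes were named after their values were seen. The members and the 30 gene lists were chosen with earlier results of these data known, so AGO3, CSD2, FER1, AGP11, HIS4, EXPA1, FLS1, VSP2 and the pollen and jasmonate lists give no independent support to those results. List medians carry no test. Setting members with 0 counts in both libraries of a genotype to the floor of 3 counts per library did not move a list's median. The small RNA libraries were not analysed here.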

Additional observations from a re-analysis of the deposited data

How the results depend on the processing

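The count of genes called by edgeR, 0 higher and 0 lower, did not change with RLE scaling, a stricter filter, the 4 homozygous and wild-type libraries alone, or protein-coding rows only. Without the low-count filter it was 0 and 4. Leaving out 1 library gave 0 to 2 higher and 0 to 1 lower, the upper values without wild type replicate 2. Without both wild type replicate 1 and homozygous replicate 2, an exclusion chosen after seeing the data, it was 3 higher and 51 lower, 6 of these 54 among the 76 calls of DESeq2. DESeq2 gave 10 higher and 66 lower in the full set, 4 to 101 higher and 30 to 98 lower without 1 library, 6 and 77 without those 2 libraries, and 7 and 41 on the 4 libraries alone (alternatives chosen after seeing the data). With the replicate number as a block, edgeR again called 0 and 0. Same-numbered homozygous and wild-type libraries deviated in opposite directions (correlation -0.364). The labels do not say what the replicate numbers mean, and how the samples pair cannot be told from 2 libraries a genotype. A crossed pairing on 4 libraries, added after seeing the data, called 43 higher and 93 lower. Genes without overlap numbered 3808 above and 3927 below, and 5923 and 2046 with CPM by the total count. Lists with a median above that of all genes numbered 18, and 15 to 18 without 1 library. Of 99 of the genes named with values, 92 kept the sign of their difference under all 12 alternatives that could be fitted for them. The rule for named genes favoured genes without overlap, and leaving out 1 library can hardly change the sign of such a gene. The count of 92 thus reflects how genes were picked and says little on stability. The genes that changed sign were named for their spread or overlap, except CAT3 and SHP2, the most abundant tested members of their lists. Over the fits that left out 1 library the log2 difference ran from -0.65 to 3.88 for JMT, -0.12 to 0.10 for CAT3, -0.11 to 0.13 for SHP2, -0.46 to 0.41 for ELIP2, -2.32 to 2.73 for OLEO1, -7.41 to 5.95 for FLA5 and -1.08 to 7.27 for CRU1. Without both libraries that stand apart it was -0.36 for JMT and -0.0165 for SHP2. The cause was not tested. Each genotype had 2 libraries, and their number limits the precision of every difference given here.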

Other observations

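Some transcripts differed more between libraries of 1 genotype than between genotypes, and belong in no comparison above. They were picked after their values were seen. FLA5, a fasciclin-like arabinogalactan protein gene, stood at 73.5 and 0.184 CPM in the homozygous libraries, 66.9 and 78.8 in the heterozygous and 0.595 and 63.7 in the wild-type ones. It was near 0 in homozygous replicate 2 and wild type replicate 1, the libraries that lie apart on the first principal component, and 63.7 CPM or more in the other 4. JMT, a methyltransferase gene that makes methyl jasmonate, stood at 208 and 132 CPM in the homozygous libraries, 179 and 186 in the heterozygous and 11.5 and 266 in the wild-type ones, and was low in wild type replicate 1 alone. XTH19, a xyloglucan endotransglucosylase gene, stood at 1.46 and 9.16 CPM in the homozygous libraries, 1.23 and 1.80 in the heterozygous and 1.14 and 1.32 in the wild-type ones, high in homozygous replicate 2 alone.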
